A study of Rattus norvegicus with 6 samples.

Results

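The genes described here are 7 markers of the contractile, differentiated state of smooth muscle, namely Myh11, Tagln, Cnn1, Lmod1, Smtn, Cald1 and Synpo2. They were picked by name from the 16319 rows of the gene count table, and all 7 had a row and enough reads to be tested. The cells were H9c2, a rat myoblast line derived from embryonic heart that the study uses as cardiomyocytes. The 3 WT libraries came from wild-type H9c2 cells, and the 3 Nono-KO libraries came from H9c2 cells edited with CRISPR/Cas9 in Nono, which encodes an RNA- and DNA-binding protein of paraspeckles. The guide and nuclease were carried by the plasmid PX459 and edited cells were selected with puromycin, with pEGFP-N1 named as the control plasmid. The scheme in the study shows expansion of the edited cells from a single cell, so the spread between the Nono-KO libraries is not a spread between independent clones. Both groups were grown in the same medium, and no age or further treatment is given.

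Differentiated smooth muscle contracts when calcium-bound calmodulin activates myosin light chain kinase, and phosphorylated smooth muscle myosin then pulls on actin filaments anchored in dense bodies. Tagln, Cnn1, Smtn and Cald1 encode proteins that bind those actin filaments, Lmod1 nucleates them, Synpo2 links them to alpha-actinin and Myh11 is the smooth muscle myosin heavy chain itself. Transcription of many of these genes depends on SRF, which binds the CArG box, and on its cofactors of the myocardin family. Several of the genes are also transcribed in fetal heart, in skeletal myoblasts and in myofibroblasts, so none of them alone names a cell type.

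Total counts ran from 18138400 to 19253858 in the WT libraries and from 17612958 to 18770188 in the Nono-KO libraries. The target of the edit was checked first, and Nono counts of 7329, 5884 and 5519 in WT stood against 109, 94 and 96 in Nono-KO, a log2 fold change of -5.89 (SE 0.13). Levels below are in CPM, read counts divided by library size, with library sizes adjusted by TMM so that a few abundant genes do not shift the rest. A gene is said to have risen or fallen where the adjusted p of edgeR's quasi-likelihood test over the 12028 genes tested was under 0.05, and to be a differentially expressed gene (DEG) where it was under 0.01 with a log2 fold change beyond 1 in either direction. Of all genes tested, 34.2% rose and 38.1% fell in Nono-KO, 10.8% were DEGs that rose, and the median log2 fold change was -0.05, so calls were common in these libraries. The numbers of genes that rose or fell in each list below are to be read beside these shares. WT replicate 1 stood apart from the other WT libraries for several of the genes below, and the values without it are given where they matter.

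Promoter windows of 300 bases, from 250 before to 50 after the annotated start, were at hand from RefSeq (build GRCr8) for 4 of the 7 genes. They are shown because the genes of the panel share regulators, and they include Cnn1, which rose, Smtn, which did not pass the test, and Cald1 and Synpo2, which were lower. Capitals mark matches to CATTCC, the MCAT motif of TEAD factors, and to CANNTG, the E box of myogenic bHLH factors, with both strands searched, so that CATTCC can also read GGAATG. The windows read 5′ to 3′ as follows.
Cnn1, chr8:28908187-28908486, plus strand: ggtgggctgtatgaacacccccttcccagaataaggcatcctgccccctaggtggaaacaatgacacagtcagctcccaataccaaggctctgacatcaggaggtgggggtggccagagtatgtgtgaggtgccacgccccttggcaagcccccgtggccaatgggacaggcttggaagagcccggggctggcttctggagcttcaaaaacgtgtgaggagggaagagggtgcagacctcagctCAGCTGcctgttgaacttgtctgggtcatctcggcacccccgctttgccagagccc
Smtn, chr14:82644465-82644764, minus strand: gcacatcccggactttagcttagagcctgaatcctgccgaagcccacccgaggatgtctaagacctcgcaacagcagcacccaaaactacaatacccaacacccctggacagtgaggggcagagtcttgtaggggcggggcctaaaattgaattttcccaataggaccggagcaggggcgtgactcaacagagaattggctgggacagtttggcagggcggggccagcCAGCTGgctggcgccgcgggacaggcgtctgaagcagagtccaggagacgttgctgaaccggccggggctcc
Cald1, chr4:64233006-64233305, plus strand: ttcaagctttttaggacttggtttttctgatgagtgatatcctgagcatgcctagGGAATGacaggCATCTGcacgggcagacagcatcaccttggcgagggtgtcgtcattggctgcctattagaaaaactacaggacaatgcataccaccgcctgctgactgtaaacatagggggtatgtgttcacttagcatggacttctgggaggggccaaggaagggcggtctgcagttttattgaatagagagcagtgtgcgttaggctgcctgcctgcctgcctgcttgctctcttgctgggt
Synpo2, chr2:214055795-214056094, minus strand: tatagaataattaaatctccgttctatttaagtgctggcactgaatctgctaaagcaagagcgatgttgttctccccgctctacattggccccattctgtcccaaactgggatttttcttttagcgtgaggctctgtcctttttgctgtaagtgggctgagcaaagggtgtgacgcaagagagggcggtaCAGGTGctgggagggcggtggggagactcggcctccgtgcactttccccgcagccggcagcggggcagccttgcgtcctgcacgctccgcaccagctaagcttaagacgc
Cald1 had a second window, at chr4:64343465-64343764, which held 3 E boxes and no MCAT motif. The CArG box, searched only as CCWWWWWWGG with W for A or T, was found in 0 of the 5 windows. It was found in 1.64% of all 33469 windows of the table. Boxes that depart from this form were not counted, so the windows are not shown to lack SRF sites. CATTCC was found in 1 of the 5, at -195 to -190 from the first Cald1 start, against 14.2% of all windows, and CANNTG in 5 of 5 against 72.1%. Of the 24 windows of other contractile genes in the table, 1 held a CArG box of this form, that of Fblim1 at -60 to -51. A match is only a match of letters, and these windows leave out the introns and the more distant upstream sequence.

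Of the 7 genes, 4 rose, 2 fell and 1 did not pass the test. Over all genes tested, 34.2% rose and 38.1% fell. The median log2 fold change of the 7 was 1.22. The 4 that rose were Lmod1, Myh11, Cnn1 and Tagln, and all 4 were DEGs, while neither of those that fell was. In the same 4 every Nono-KO library lay above every WT library, which held for 36.1% of all genes tested, and in Synpo2 every Nono-KO library lay below, which held for 39.0%. In the ranking of all genes tested by log2 fold change, 131 lay above Lmod1, 145 above Myh11, 625 above Cnn1 and 966 above Tagln. In bulk RNA, more cells that express a gene cannot be told apart from more of its RNA in each cell.

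**Figure D1:**
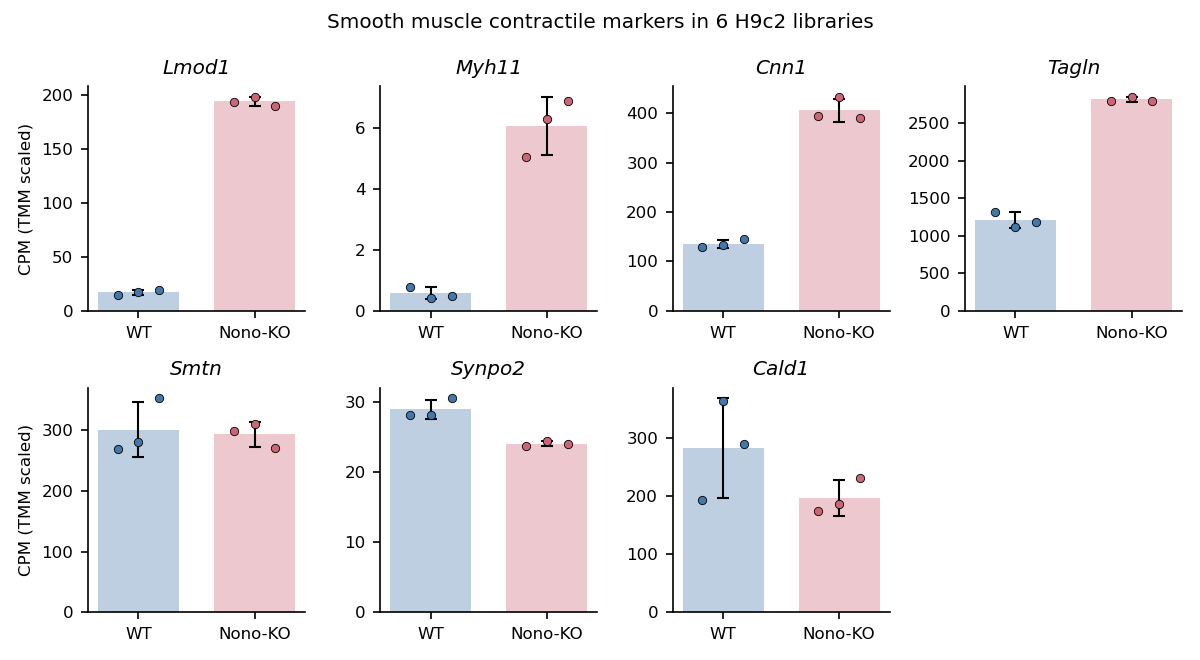
Level of each of the 7 genes in CPM on a linear axis starting at 0, with points for the 3 WT and 3 Nono-KO libraries and bars for the mean ± SD. Groups are separated upward in Lmod1, Myh11, Cnn1 and Tagln and downward in Synpo2, and they overlap in Smtn and Cald1.

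Lmod1, leiomodin 1, which nucleates actin filaments in smooth muscle, was counted 300, 331 and 350 times in WT and 3322, 3571 and 3594 times in Nono-KO. Its level went from 17.4 ± 2.29 CPM to 194 ± 4.23 CPM (SD, n = 3 each), 11.2-fold by the fit. The log2 fold change was 3.49 (SE 0.11, edgeR adjusted p = 2.75e-09). The Nono-KO libraries differed little from each other, and the lowest WT library was replicate 1.

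Myh11, the smooth muscle myosin heavy chain and the most specific marker of the panel, was under 1 CPM in every WT library. Its WT libraries held 16, 8 and 9 reads, and its Nono-KO libraries 86, 113 and 130. The level went from 0.57 ± 0.19 to 6.07 ± 0.95 CPM, and the log2 fold change was 3.37 (95% interval 2.77 to 3.98, edgeR adjusted p = 9.72e-07). With so few WT reads the ratio of the summed counts per library total was 10.5, with an exact 95% interval of 7.32 to 15.5 that covers counting error only. Here WT replicate 1 was the highest of the WT libraries, and without it the log2 fold change was 3.69.

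Cnn1, calponin 1, which binds actin and slows the actomyosin cycle, was counted 2591, 2511 and 2599 times in WT and 6722, 7782 and 7380 times in Nono-KO. Its level went from 136 ± 7.99 to 406 ± 23.8 CPM, a 2.98-fold rise (log2 fold change 1.58, SE 0.09, edgeR adjusted p = 6.86e-08). Tagln, transgelin or SM22 alpha, an actin-bundling protein, was counted 26574, 20921 and 21193 times in WT. The Nono-KO counts were 47722, 51192 and 52821. Its level went from 1207 ± 104 to 2813 ± 32.1 CPM, a 2.33-fold rise (log2 fold change 1.22, SE 0.08, edgeR adjusted p = 2.50e-07). For both genes the gap between the groups was several times the spread within either group.

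Smtn, smoothelin, an actin-binding protein of contractile smooth muscle, did not move detectably. Counts of 5415, 5238 and 6337 in WT compared with 5106, 5577 and 5101 in Nono-KO, or 301 ± 45.3 and 293 ± 20.7 CPM. The log2 fold change was -0.037, with a 95% interval of -0.27 to 0.20 (edgeR adjusted p = 0.770). That interval leaves out a change of the size seen for Tagln.

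Synpo2, synaptopodin 2 or myopodin, which links actin to alpha-actinin at Z-discs and dense bodies, fell slightly. Counts of 567, 528 and 550 in WT compared with 407, 440 and 455 in Nono-KO, or 29.0 ± 1.38 and 24.1 ± 0.34 CPM. The log2 fold change was -0.27 (SE 0.10, edgeR adjusted p = 0.0296), and DESeq2 did not call it (adjusted p = 0.100). Cald1, caldesmon, which holds actin away from myosin until calcium rises, varied within both groups. Its levels were 193, 364 and 290 CPM in the WT libraries and 174, 186 and 231 CPM in the Nono-KO libraries, so Nono-KO replicate 3 lay above WT replicate 1. It fell by 0.52 on the log2 scale (SE 0.20, edgeR adjusted p = 0.0421), and DESeq2 did not call it either (adjusted p = 0.113). The log2 fold change of Cald1 was -0.74 without WT replicate 1 (edgeR adjusted p = 0.0001). It was -0.30 without WT replicate 2, where the call was lost (edgeR adjusted p = 0.156). Gene-level counts do not separate the smooth muscle forms of Smtn and Cald1 from their longer or shorter forms in other cells, so neither value speaks for one isoform.

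**Figure D2:**
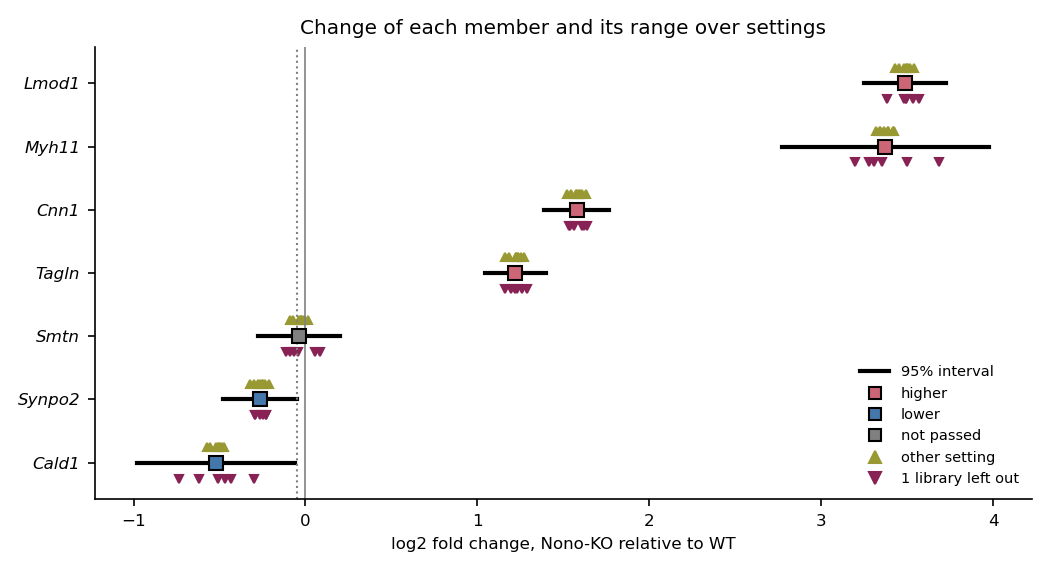
Log2 fold change (Nono-KO relative to WT) of each gene with its 95% interval from the edgeR fit, and the dotted line at the median of all genes tested, -0.05. Lmod1 and Myh11 form the upper pair, Cnn1 and Tagln the middle pair, and Smtn, Synpo2 and Cald1 lie at or below 0.

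The genes were then ordered by their change and neighbours in that order were compared through the ratio of their counts within each library, which is independent of scaling between libraries. The Lmod1 to Myh11 ratio overlapped between the groups, with a mean log2 difference of 0.05, so those changes were not separated. The Myh11 to Cnn1 ratio was higher in every Nono-KO library, by 1.86 on the log2 scale. The Cnn1 to Tagln ratio was higher by 0.35 and the Tagln to Smtn ratio by 1.25, again with no overlap. The Smtn to Synpo2 and Synpo2 to Cald1 ratios overlapped, with differences of 0.24 and 0.22. Because the genes were ordered by their change, the sign of each difference was set by the order. The differences restate the fold changes and are no separate test of them. No share of ratios without overlap was computed for other genes. With 3 libraries a group, no exact two-sided permutation test of a single ratio can go below p = 0.1.

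For 5 of the 7 genes, levels were also set against family members less tied to smooth muscle. Smtn was left out because its listed relatives Smtnl1 and Smtnl2 had too few reads to be tested, and Cald1 because no relative was listed. Of 11 paralogs tested, out of 17 listed, 4 rose and 5 fell, beside 34.2% and 38.1% of all genes tested. The median log2 fold change of the paralogs was -0.19. The non-muscle myosin heavy chains fell, Myh9 from 3743 ± 416 to 2895 ± 144 CPM (log2 fold change -0.37) and Myh10 from 99.2 ± 5.64 to 64.0 ± 2.30 CPM (-0.63). Lmod3, the skeletal leiomodin, fell from 9.69 ± 1.97 to 4.16 ± 1.06 CPM (-1.22), while Lmod2, the cardiac one, rose on few reads, from 0, 0 and 4 in WT to 13, 17 and 12 in Nono-KO. Tmod1 rose by 1.30 and Tmod3 fell by 0.62, both encoding tropomodulins that cap the slow end of actin filaments. Cnn2 rose by 0.20 and Cnn3 fell by 0.36, and Tagln2 had a log2 fold change of -0.10 that did not pass the test. Synpo2l rose by 0.92, and Synpo, at -0.19, did not pass.

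Ratios of these genes to their relatives were compared within each library. In 9 of 10 pairs the groups did not overlap, and the exact two-sided permutation p was then 0.1 (0.111 adjusted over the 10 pairs), the smallest unadjusted value 3 against 3 libraries allow. Groups that do not overlap were common among single genes (36.1% above and 39.0% below, as given before), and no such share was computed for ratios of other genes, so nothing is read from the count. The log2 ratio of Lmod1 to Lmod3 was higher in Nono-KO by 4.72, that of Lmod1 to Tmod3 by 4.13 and that of Lmod1 to Tmod1 by 2.18. Myh11 gained 3.81 on Myh9 and 4.07 on Myh10. Cnn1 gained 1.38 on Cnn2 and 1.93 on Cnn3, and Tagln gained 1.32 on Tagln2. Synpo2 went the other way against Synpo2l, by -1.20, and its ratio to Synpo differed by -0.08 with overlapping groups.

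**Figure D3:**
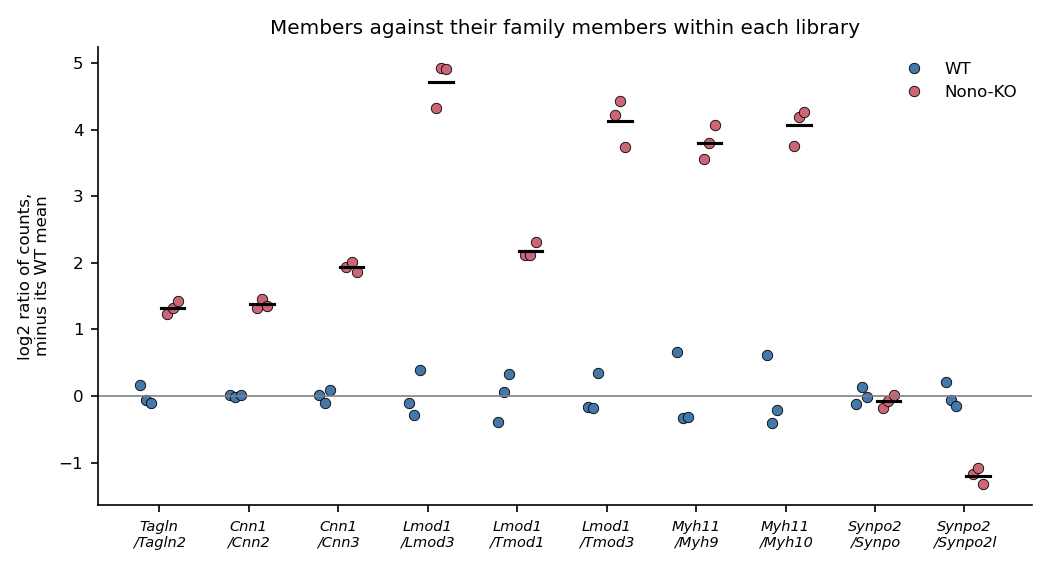
Log2 ratio of the counts of Lmod1, Myh11, Cnn1, Tagln and Synpo2 to those of their paralogs within every library, WT beside Nono-KO, each point a library. Each ratio is drawn minus the WT mean of its pair. The Nono-KO points lie above the WT points for the pairs of Lmod1, Myh11, Cnn1 and Tagln, below them for Synpo2 against Synpo2l, and overlap for Synpo2 against Synpo.

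The other genes of the contractile apparatus mostly rose. Of 24 tested, 16 rose, 6 fell and 2 did not pass the test, with a median log2 fold change of 0.69. Over all genes tested, 34.2% rose and 38.1% fell. Acta2, smooth muscle alpha-actin, went from 5311 ± 419 to 11595 ± 575 CPM (log2 fold change 1.13), Actg2, smooth muscle gamma-actin, by 1.07 and Myl9, the regulatory light chain of smooth muscle myosin, by 1.14. These changes were close in size to that of Tagln. Mylk, myosin light chain kinase, rose from 2, 10 and 9 reads in WT to 92, 98 and 100 in Nono-KO, a log2 fold change of 3.83 that was 3.35 without WT replicate 1. Des, desmin, the intermediate filament of muscle, rose from 22.1 ± 5.62 to 96.8 ± 8.90 CPM (2.13).

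Among the 6 that fell were Tes, Lpp and Vcl, which encode proteins of focal adhesions. Tes, testin, went from 120 ± 23.2 to 17.96 ± 2.77 CPM (log2 fold change -2.73), Lpp by -1.98, and Vcl, vinculin, from 390 ± 48.0 to 118 ± 1.91 CPM (-1.72). Pdlim5 fell by 1.09, Actn1 by 0.59 and Tpm4 by 0.42. Flna, filamin A, differed by 0.16 and did not pass.

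**Figure D4:**
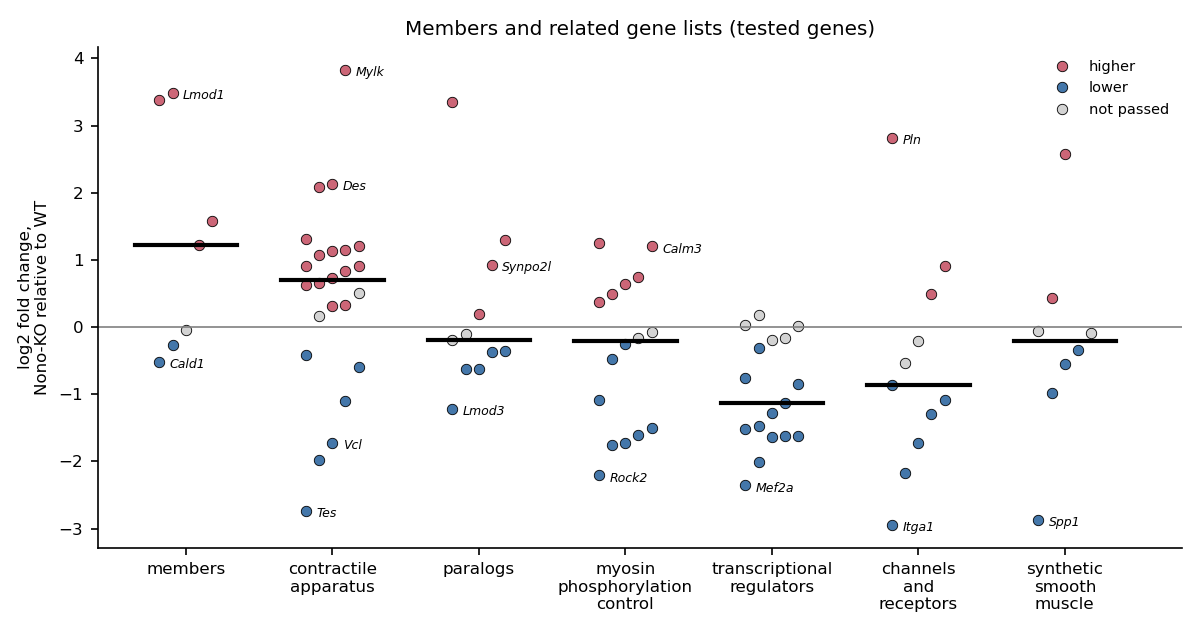
Log2 fold change of every tested gene in the panel and in 6 related gene lists, each point a gene and each bar the median of its list. The median of the transcriptional regulators lies at -1.13 and that of the contractile apparatus at 0.69.

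Enzymes that set myosin phosphorylation changed in both directions. Of 16 tested, 6 rose and 8 fell (median -0.20), beside 34.2% and 38.1% of all genes tested. Rock2 and Rock1, kinases that inhibit myosin phosphatase, fell, Rock2 from 22.5 ± 9.84 to 4.87 ± 0.37 CPM (log2 fold change -2.21) and Rock1 by -1.61, as did the myosin phosphatase subunit Ppp1r12a by -1.72 and Prkg1, the cGMP-dependent kinase that relaxes smooth muscle, by -1.76. Dapk3, which phosphorylates the myosin light chain, rose by 1.25, and the calmodulin gene Calm3 rose by 1.20. Calm2, another calmodulin gene, rose by 0.38, a call lost with total-count scaling (edgeR adjusted p = 0.0559), without WT replicate 3 (0.0586) and without Nono-KO replicate 3 (0.0548).

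The regulators of smooth muscle transcription fell or did not pass the test. Of 17 tested out of 20 listed, 0 rose and 12 fell with edgeR, beside 34.2% and 38.1% of all genes tested. The other 5 did not pass, and the median of the list was -1.13. Myocd, myocardin, the SRF cofactor that switches on smooth muscle genes, was counted 1252, 2414 and 2456 times in WT and 628, 570 and 722 times in Nono-KO. It went from 109 ± 40.9 to 35.6 ± 3.41 CPM (log2 fold change -1.62, SE 0.28, edgeR adjusted p = 0.00103), and by -1.91 without WT replicate 1, which had the lowest WT level. Every Nono-KO library was nevertheless below every WT library, so Myocd and the 4 rising genes of the panel moved in opposite directions. Srf itself, at 268 ± 49.9 and 233 ± 6.94 CPM, had a log2 fold change of -0.20 that did not pass (edgeR adjusted p = 0.159). Among the alternative settings, only leaving out WT replicate 1 gave a call, a fall of 0.34 (edgeR adjusted p = 0.00198). Srf was at -0.083 without WT replicate 3 (edgeR adjusted p = 0.534) and at -0.17 with DESeq2 (adjusted p = 0.265). Mrtfa, the actin-sensing SRF cofactor, had 195 ± 24.7 and 197 ± 13.2 CPM, and its relative Mrtfb fell from 14.7 ± 1.09 to 6.07 ± 0.72 CPM (-1.28). The largest falls were in Mef2a, a muscle activator, at -2.36, and Elk4, an SRF partner of the ETS family, at -2.02. Klf5, a zinc-finger factor of proliferating smooth muscle, fell by 1.63, and Mef2c, a relative of Mef2a, fell by 1.62.

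Channels, receptors and integrins of differentiated smooth muscle changed in both directions. Of 11 tested out of 22 listed, 3 rose and 6 fell (median -0.86), beside 34.2% and 38.1% of all genes tested. Pln, phospholamban, which restrains the calcium pump of the sarcoplasmic reticulum, rose by 2.82 from a WT level of 0.72 ± 0.54 CPM. Avpr1a, the vasopressin receptor, rose by 0.91 and Itga7, a laminin-binding integrin subunit, by 0.49. Itga1, a collagen-binding integrin subunit, fell by 2.95. The serotonin receptor gene Htr2a fell by 2.17, the endothelin receptor gene Ednra fell by 1.73 and the calcium channel gene Cacna1c fell by 0.86.

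Of the genes known from proliferating, synthetic smooth muscle, 8 of 12 listed were tested, and 2 rose and 4 fell (median -0.21). Over all genes tested, 34.2% rose and 38.1% fell. Spp1, osteopontin, fell from 49.8 ± 16.5 to 6.78 ± 1.19 CPM (log2 fold change -2.87) and Thbs1, thrombospondin 1, by 0.99. Mmp2, a gelatinase, rose by 2.58, from 1, 9 and 14 reads in WT to 35, 61 and 43 in Nono-KO. Fn1, fibronectin, differed by -0.062 and did not pass.

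Because several of these genes are shared with striated muscle, markers of other cell types were measured in the same libraries. Of 6 skeletal muscle markers tested, out of 10 listed, 4 rose and 0 fell with edgeR, beside 34.2% and 38.1% of all genes tested. Acta1, skeletal alpha-actin, went from 14.7 ± 7.58 to 480 ± 67.1 CPM (log2 fold change 5.04), Myog, myogenin, from 6.50 ± 1.63 to 106 ± 10.1 CPM (4.03), and Myh3, embryonic myosin, by 3.51. The summed level of the list was 126 to 186 CPM in WT and 727 to 888 CPM in Nono-KO. That rise accompanied the rise of Lmod1, Myh11, Cnn1 and Tagln, and its part in theirs was not tested. Myod1, at 126 ± 19.1 and 151 ± 9.17 CPM, was present in every library and did not pass.

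Cardiomyocyte markers, by contrast, were near 0 where they are most specific, although the label calls the cells cardiac muscle. Myh6 had 5 to 18 counts in the 6 libraries, Myh7 2 to 7, Tnni3 4 to 11, and Nppa and Myl7 0 to 2. Of 4 markers tested out of 10 listed, Pln and Actn2 rose and 0 fell, beside 34.2% and 38.1% of all genes tested. Actn2 went from 3 reads in each WT library to 19, 24 and 19 in Nono-KO. Tnnt2, which fetal muscle also expresses, lay at 13.4, 78.0 and 83.0 CPM in WT, at 111, 135 and 137 CPM in Nono-KO, and did not pass. The summed level of this list was 15.8 to 86.2 CPM in WT and 118 to 144 CPM in Nono-KO. Most of that sum was Tnnt2, with means of 58.1 and 128 CPM, and its low WT end was WT replicate 1. The sum therefore restates Tnnt2 and is not a rise of the list as a whole.

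Fibroblast markers summed to 37362 to 45205 CPM in WT and 28839 to 33960 CPM in Nono-KO, mostly from collagen genes. The WT means were 18295 CPM for Col1a1, 18484 for Col1a2 and 3538 for Col3a1. Pdgfra (0 to 5 counts), Dcn (0 to 1) and Lum (0 to 9) had too few reads to be tested, and Fap had no row. Of the 5 tested, 1 was higher and 3 were lower, beside 34.2% and 38.1% of all genes tested. Pericyte markers, the mural cell set nearest to smooth muscle, split, with 2 of 6 higher and 3 lower and a summed level of 713 to 847 CPM in WT and 696 to 759 CPM in Nono-KO. Notch3, a receptor of mural cells, rose from 44.0 ± 7.08 to 136 ± 19.5 CPM (log2 fold change 1.63), and Mcam rose by 0.41. Pdgfrb, the most abundant of the set, fell from 564 ± 45.2 to 409 ± 11.3 CPM (-0.46). Abcc9 fell by 1.16 and Kcnj8 by 0.74. Endothelial markers summed to 2.94 to 4.45 CPM in WT and 0.70 to 1.22 CPM in Nono-KO, and macrophage markers to 31.8 to 44.8 and 28.1 to 33.0 CPM. The endothelial sum was mostly Vwf, at 3.58 ± 0.81 and 0.85 ± 0.23 CPM. The macrophage sum was mostly Cd14, which did not pass the test (31.8 ± 5.66 and 28.8 ± 2.68 CPM), while Csf1r fell from 3.79 ± 1.26 to 1.04 ± 0.08 CPM. Against the label of the panel, the actin-associated members were present in all 6 libraries, while Myh11 lay between 0.43 and 0.80 CPM in WT and between 5.03 and 6.88 CPM in Nono-KO.

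Genes whose levels ran most closely beside each member over the 6 libraries were found by the root mean square distance between log2 CPM profiles, each centred on its own mean. For Lmod1 they were Itgb4 (0.04), Col18a1 (0.17) and Palmd (0.19), and for Myh11 Atp2a3 (0.22), H1f2 (0.22) and Tjp3 (0.23). For Cnn1 they were Mmp24os, Smim1 and Galnt6, and for Tagln Ccdc106 (0.04), Hspb2 (0.04) and C1rl (0.05). For Smtn they were Wdr46, G4 and Bop1, for Cald1 they included Nop58 and Tdp2, and for Synpo2 Adipor2 (0.02), Tanc1 and Prdm8. No gene of the panel was among the closest profiles of another, and a distance over 6 libraries in 2 groups is given as a description only.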

How the data were processed

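RNA was measured in 6 libraries of H9c2 cells, 3 WT and 3 Nono-KO. The values are whole-number read counts per gene that the authors deposited without normalization. Tools named by the submitters' processing notes are HTSeq, HISAT2 and Trimmomatic, with the build mRatBN7.2, whereas the study's methods name Bowtie2 and another rat build. The kit was a stranded mRNA kit, and its counting annotation and strand option were not given in the sources used here. If counting ignored strand, reads of antisense neighbours would be mixed in: Lmod1, Cald1 and Synpo2 each overlap a long non-coding RNA of RefSeq (LOC120096253, LOC120102254 and LOC134485960) that has no row of its own.

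The 7 genes and all lists were chosen with earlier results of these data known. Genes were kept by edgeR's filterByExpr (12028 of 16319), scaled by TMM and tested with the robust quasi-likelihood test of edgeR 4.0.16 in R 4.3.3, with Benjamini-Hochberg adjustment over all genes tested. Log2 CPM used a prior count of 2. The SE of a log2 fold change was that value over the root of its F statistic. Named were the 7 genes, Nono, from each list up to 4 called genes of largest change at 5 CPM or more where higher, plus its 2 most abundant genes, the overlapping and nearest annotated genes, and the 3 closest profiles of each member. Other list genes are named to account for the lists and were chosen after their values were seen. The study's methods give 3 biological replicates for RNA-seq. Labels do not say whether libraries came from separate cultures, so p-values measure the spread between libraries, and how much of it is technical is not known. No 2 libraries of a group were alike within sampling noise (chi-square per degree of freedom 2.6 to 24.4). Alternatives were DESeq2 1.42.0, RLE, upper quartile and total-count scaling, other filters, thinning, a replicate block and leaving out each library. The values of some single genes were left out of the text. The tests were checked on simulated data.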

Additional observations from a re-analysis of the deposited data

How the results depend on the processing

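Lmod1, Myh11, Cnn1 and Tagln stayed higher and past the threshold in all 14 alternatives, with log2 fold changes of 3.38 to 3.57, 3.19 to 3.69, 1.52 to 1.64 and 1.16 to 1.29. The number of the 7 genes that fell was 2, but 0 with DESeq2, 0 with RLE size factors, 1 with no filter on low counts and 0 to 2 with 1 library left out. Cald1 was then -0.50 with DESeq2 (adjusted p = 0.113), -0.47 with RLE (0.0548), -0.56 with no filter (0.134) and -0.74 to -0.30 with 1 library left out, its call being lost without WT replicate 2 (-0.30), WT replicate 3 (-0.51), Nono-KO replicate 1 (-0.43) or Nono-KO replicate 2 (-0.47). Synpo2 was -0.24 with DESeq2 (adjusted p = 0.100), -0.21 with RLE (0.0795) and -0.29 to -0.23 with 1 library left out, its call being lost without WT replicate 3 (-0.23), Nono-KO replicate 1 (-0.25), Nono-KO replicate 2 (-0.27) or Nono-KO replicate 3 (-0.23). The cause was not tested. The log2 fold change of Smtn was 0.017 with RLE and -0.12 to 0.087 with 1 library left out. The number of synthetic smooth muscle genes that rose was 2, but 1 with total counts only, upper quartile scaling or no filter and 1 to 2 with 1 library left out.

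With the replicate block the number of the 7 genes that fell was 1, Synpo2 being -0.27 with adjusted p = 0.0785. Same-numbered libraries did not deviate together (r of 0.05, -0.16 and -0.19), and only WT replicate 1 was closest to its own number, so the numbers are not taken as pairs.

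Signs turned for genes with changes near 0: Mrtfa (-0.043 with total counts, -0.023 with no filter, -0.082 to 0.10 with 1 library left out), Wdr46 (0.011 with RLE, -0.13 to 0.069), G4 (-0.050 with total counts, -0.031 with no filter, -0.066 to 0.11), Bop1 (-0.037, -0.020 and -0.075 to 0.16), Selenom (-0.047, -0.024 and -0.032 to 0.099), Fn1 (-0.13 to 0.041) and Cd14 (-0.23 to 0.0051). The median log2 fold change of all genes was 0.10 with DESeq2 and -0.11 with total counts, against -0.05. Depth limits Myh11, Mylk, Lmod2, Mmp2 and Actn2, which had at most 16 counts in any WT library.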

Other observations

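Annotated neighbours of the panel genes on the chromosome were looked at in the same fit, with the order of genes taken from RefSeq. Beside Cnn1, Ecsit rose by 0.70 and Elof1 by 0.63 on the log2 scale, against 1.58 for Cnn1. Beside Lmod1, Shisa4 rose from 278 ± 22.0 to 451 ± 14.95 CPM (log2 fold change 0.70), and Timm17a, at 0.16, did not pass the test. Next to Myh11, Nde1 fell by 0.39, and Cep20 (-0.18) did not pass. Neither neighbour of Tagln passed, Pcsk7 at -0.17 and Sidt2 at 0.17, nor did Selenom beside Smtn (0.011). Bpgm, on one side of Cald1, rose by 0.87, and Sec24d, beside Synpo2, fell by 0.92. Among all genes tested 34.2% rose and 38.1% fell, and no rise among the neighbours came near that of Lmod1 or Myh11.

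Within the WT group the genes of the panel did not vary together. WT replicate 1 lay 0.50 below the WT mean for Cald1 and 0.21 below it for Lmod1 on the log2 CPM scale, but 0.44 above it for Myh11 and 0.14 above it for Tagln. Myh11 in that library rested on 16 counts.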
